A study of Rattus norvegicus with 18 samples.

Results

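The JAK-STAT and SOCS genes described here are 9 genes of cytokine signalling, the kinases *Jak1* and *Jak3*, the transcription factors *Stat3*, *Stat4*, *Stat5a* and *Stat5b*, and the inhibitors *Socs1*, *Socs3* and *Cish*. They were chosen by gene name from 3 tables of 32882 genes each, measured by bulk sequencing of the 3′ ends of mRNA in rat T-MBP cells, which are CD4+ T cells specific for myelin basic protein. Of the 9 genes, 8 were matched to a row by name (*Stat4* was not), and 7 reached the minimum level for testing in each table (*Socs3* did not). The study used these libraries to ask what changes in T-MBP cells when a regulator of migration into the central nervous system is edited. All cells were restimulated in culture with irradiated thymocytes and MBP after expansion in medium with the supernatant of EL4IL2 cells, transferred into Lewis rats, and sorted 3 days later. There were 6 groups of 3 libraries. Cells labelled *Ets1*-KO and their controls were taken from the parenchyma of the spinal cord and from the spleen, and cells labelled *Grk2*-KO and their own controls from the spleen alone. Control cells carried a non-targeting guide and their genotype is labelled WT. They were sorted by BFP and KO cells by GFP, so that genotype and reporter cannot be told apart. By the methods, guide and Cas9 protein were electroporated together into cells that already carried the BFP or EGFP retrovirus, so the sort marked the culture and not the edit.

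Cytokines such as IL-2, IL-4, IL-7 and IL-21 bind receptors that share the common gamma chain. JAK1 and JAK3 sit on the inner tails of these receptors and phosphorylate STAT proteins, which pair up, enter the nucleus and bind DNA. STAT3 mainly carries signals of IL-6, IL-21 and IL-23, STAT4 those of IL-12 and IL-23, and STAT5A and STAT5B those of IL-2 and IL-7. Cytokine signals also induce *Cish* and the SOCS genes, whose products bind receptors or JAKs and limit the signal, so that the mRNA of these feedback inhibitors is commonly read as a sign of recent cytokine signalling. In T cells these proteins govern growth, survival and the choice of helper subset.

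The guides that define the KO and control groups are shown because every comparison rests on them. They are written 5′ to 3′, with the 10 bases next to the PAM in capitals.
Non-Targeting: gctgcatgggGCGCGAATCA
Ets1(rat): tgctgctcggAGTTAACAGT
Grk2(rat): gatttgtcagAACCTCCGAG

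STAT dimers favour the palindrome TTCNNNGAA, where N is any base. The palindrome was searched on both strands in windows of 300 bases around gene starts (250 before and 50 after), from the RefSeq table for GRCr8. Of 33469 windows, 2970 (8.87%) held at least 1 copy. A window was listed for 7 of the 9 genes (not for *Jak1* and *Jak3*), and 2 of the 7, *Cish* and *Socs1*, held the palindrome. *Cish* held 4 copies, which began 241, 230, 136 and 119 bases upstream of the start, and only 2 of all 33469 windows (0.00598%) held 4 or more. *Socs1* held 1 copy, which began 196 bases upstream. The windows of *Stat3*, *Stat4*, *Stat5a*, *Stat5b* and *Socs3* did not contain these letters. The 250 bases before the start are shown for *Cish* (chr8:116850719-116850968, plus strand) and *Socs1* (chr10:5389324-5389573, plus strand), because these feedback genes are the 2 with a match, and capitals mark each palindrome. A match describes the letters and does not show that a STAT protein bound there.
Cish: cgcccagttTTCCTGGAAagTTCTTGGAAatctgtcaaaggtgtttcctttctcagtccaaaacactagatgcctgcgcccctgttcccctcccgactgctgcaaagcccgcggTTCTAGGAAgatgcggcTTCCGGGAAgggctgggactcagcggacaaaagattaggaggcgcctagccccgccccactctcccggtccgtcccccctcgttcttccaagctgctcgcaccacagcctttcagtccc
Socs1: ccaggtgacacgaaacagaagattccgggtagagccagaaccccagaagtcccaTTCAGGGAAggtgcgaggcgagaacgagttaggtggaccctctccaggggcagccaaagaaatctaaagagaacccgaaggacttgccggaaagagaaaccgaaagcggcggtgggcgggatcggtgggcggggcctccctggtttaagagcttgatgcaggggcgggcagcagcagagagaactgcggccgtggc

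Libraries held between 898092 and 2248258 reads on genes. The spleen libraries labelled *Ets1*-KO were all deeper (1909862 to 2248258 reads) than their controls (898092 to 1213485 reads), so depth and genotype cannot be told apart there. *Grk2* mRNA was lower in the *Grk2*-KO cells, with a mean normalized count of 68.3 ± 17.4 against 158 ± 14.1 in control (SD, n = 3), a log2 fold change of -1.22. *Ets1* mRNA was not measurably lower in the libraries labelled *Ets1*-KO, with log2 fold changes of 0.09 in the parenchyma (limma, adjusted p = 0.56) and -0.06 in the spleen (adjusted p = 0.854), and reads from 3′ ends do not show edits elsewhere in a transcript. By the methods, single-KO lines were checked for editing by sequencing before use. The study also provides a western blot of ETS1 protein in non-targeting and KO cells. Neither was used here. All 8 T cell markers were read in every group. Their sum was 4209 to 4552 normalized counts in parenchyma control and 4555 to 4774 in the parenchyma libraries labelled *Ets1*-KO, without overlap. Of the CD8 markers *Cd8b* was at 0 and *Cd8a* was at 0 to 3.74 in parenchyma control and 5.67 to 10.1 in the libraries labelled *Ets1*-KO there. The sum of 12 myeloid markers ranged from 27.3 to 51.1 normalized counts in parenchyma control and from 42.5 to 64.7 in the parenchyma libraries labelled *Ets1*-KO, against at most 11.0 in spleen libraries. Most of the parenchyma sum came from *Lyz2* (16.9 to 47.6), *Adgre1* and *Mrc1* were at 0 in all libraries, and the part of any of these shifts in the results below was not tested.

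Values below are normalized counts, that is, reads per gene divided by the size factor of the library, within 1 table. Differences between KO and control were tested across all genes that averaged 10 or more normalized counts over the libraries of a table, with limma on log2(normalized count + 1), and log2 fold changes are on that scale, which understates changes of low genes. A gene was called changed at a Benjamini-Hochberg adjusted p under 0.05. For standard errors (SE), intervals and p, limma joins the spread of a gene's own pairs (2 degrees of freedom) with that of genes of similar level. The shared spread counted as 21.97 degrees of freedom in the spleen *Ets1* table, 141.3 in the *Grk2* table and infinitely many in the parenchyma. Parenchyma SE, intervals and p therefore rest on the shared spread alone, and those of the other tables mainly on it.

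**Figure D1:**
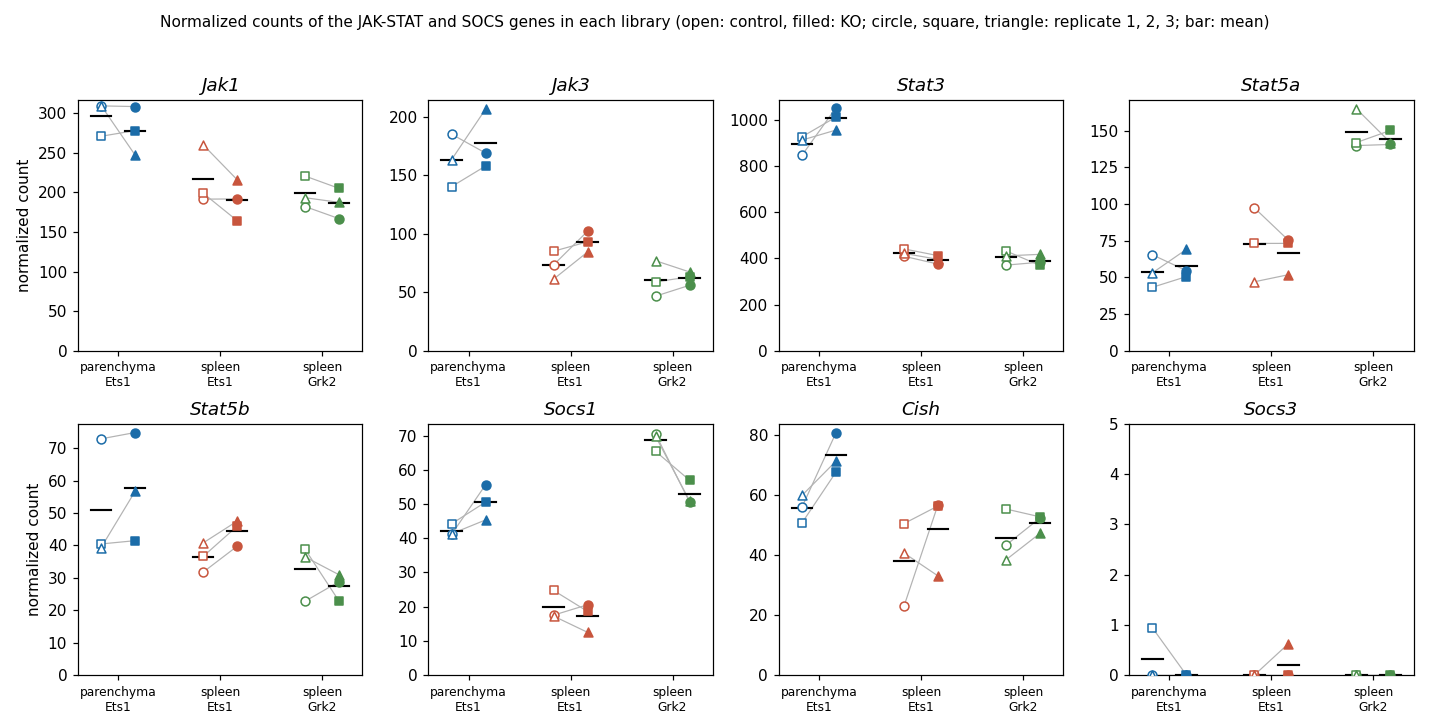
Each panel plots the normalized count of 1 gene (vertical axis, from 0) in each library of the 3 tables, with open symbols for control, filled symbols for KO, a symbol shape per replicate number, grey lines between libraries of the same number and black bars for means. In the parenchyma all 3 KO libraries of Stat3, Socs1 and Cish lie above all 3 controls, in the spleen Grk2 table all 3 KO libraries of Socs1 lie below, and Socs3 stays at 0 or 1 read.

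The kinases were detected in every library, and neither was called changed in any comparison. *Jak1*, whose product works with almost all receptors of this family (Rnor_6.0, chr5:119982942-120083904, minus strand), had normalized counts of 309, 271 and 310 in parenchyma control and 308, 278 and 247 in the parenchyma libraries labelled *Ets1*-KO. The groups overlapped, and the log2 fold change was -0.10 ± 0.10 (SE, n = 3), with a 95% confidence interval (CI) from -0.30 to 0.10. In the spleen the *Jak1* fold change was -0.18 on the log2 scale (CI -0.44 to 0.09) for *Ets1*-KO and -0.09 (CI -0.29 to 0.11) for *Grk2*-KO. *Jak1* was lower than its control in 2, 2 and 3 of 3 pairs. In bulk samples such as these, fewer expressing cells and less RNA per cell cannot be told apart.

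*Jak3*, whose product binds the common gamma chain (chr16:20109199-20120668, plus strand), differed most in the spleen *Ets1* table. Control libraries had normalized counts of 73.3, 85.0 and 61.1, and libraries labelled *Ets1*-KO had 102, 93.0 and 84.3. The value was higher in 3 of 3 pairs, although the groups overlapped narrowly, since the lowest KO library lay just under the highest control. The log2 fold change was 0.35 ± 0.17 (SE, n = 3; CI 0.01 to 0.70), which missed the threshold (limma, adjusted p = 0.344). In the parenchyma *Jak3* gave a log2 fold change of 0.13 (CI -0.11 to 0.36) and in *Grk2*-KO cells 0.06 (CI -0.28 to 0.39).

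*Stat3* (chr10:88790407-88842233, minus strand), which carries IL-6, IL-21 and IL-23 signals, had the narrowest interval of the transcription factors. In the parenchyma its normalized counts were 846, 926 and 912 in control and 1052, 1012 and 955 in the libraries labelled *Ets1*-KO, with means of 895 ± 42.7 and 1007 ± 48.7 (SD, n = 3). All 3 KO libraries lay above all 3 controls, and the fold change was 1.12 (CI 1.01 to 1.25), or 0.17 ± 0.08 (SE) on the log2 scale. The difference did not pass the threshold (limma, adjusted p = 0.213). Spleen control libraries of the *Ets1* table had 409, 441 and 422 and libraries labelled *Ets1*-KO had 375, 412 and 396. Here *Stat3* was lower in 3 of 3 pairs, but the groups overlapped and the log2 fold change was -0.10 ± 0.11 (CI -0.33 to 0.13). In *Grk2*-KO cells it was -0.05 (CI -0.22 to 0.11), with 2 of 3 pairs higher.

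*Stat5a* and *Stat5b*, the close paralogs that carry IL-2 and IL-7 signals, lie next to *Stat3* on chromosome 10 (*Stat5b* at 88686206 to 88754829, minus strand, and *Stat5a* at 88764731 to 88789057, plus strand). Reads shared by the paralogs could be split or lost in counting, so the *Stat5a* and *Stat5b* values are uncertain in that respect. The 3′ ends of *Stat5a* and *Stat3* face each other over 1349 bases, which leaves a further uncertainty in the values of these neighbours. Parenchyma control had *Stat5a* values of 65.4, 43.3 and 53.1, against 54.6, 50.5 and 69.1 in libraries labelled *Ets1*-KO. These overlapped fully, and the log2 fold change was 0.11 (CI -0.25 to 0.48). For *Stat5a* in the spleen it was -0.08 (CI -0.45 to 0.30) for *Ets1*-KO, where replicates ranged from 47.0 to 97.4 in control, and -0.04 (CI -0.27 to 0.18) for *Grk2*-KO.

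*Stat5b* was higher in 3 of 3 pairs in both *Ets1* tables, and the groups overlapped in each. In the parenchyma the values were 72.9, 40.4 and 39.3 in control and 74.8, 41.4 and 56.7 in the KO-labelled libraries, a log2 fold change of 0.20 ± 0.19 (CI -0.18 to 0.57). In the spleen they were 31.7, 36.6 and 40.7 in control and 39.7, 45.9 and 47.5 in libraries labelled *Ets1*-KO, which gave 0.28 ± 0.22 (CI -0.18 to 0.75). In *Grk2*-KO cells the log2 fold change was -0.21 (CI -0.69 to 0.26). With 21 to 78 reads per library, these intervals still include changes in either direction for *Stat5b* in all 3 tables.

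*Stat4*, the mediator of IL-12 signals, could not be matched to a row by name and was not analysed here.

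The inhibitor *Cish* (chr8:116054464-116060723, plus strand), the gene with 4 palindromes in the sequence above and a classical target of STAT5, had the largest fold change of the 7 tested genes in the parenchyma. Its normalized counts were 56.0, 50.8 and 60.0 in control and 80.9, 67.7 and 71.4 in the libraries labelled *Ets1*-KO. All 3 KO libraries lay above all 3 controls, with means of 73.3 ± 6.78 and 55.6 ± 4.60 (SD, n = 3), a fold change of 1.31 (CI 1.03 to 1.67). The log2 fold change of 0.39 ± 0.18 (SE) missed the threshold (limma, adjusted p = 0.202).

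In the spleen *Cish* was 23.0, 50.6 and 40.7 in control and 56.8, 56.4 and 33.1 in libraries labelled *Ets1*-KO. The mean log2 fold change was similar in size (0.38 ± 0.26, CI -0.15 to 0.91), but 1 of 3 pairs went down and the groups overlapped. That value rested on replicate 1, without which it was -0.07. In *Grk2*-KO cells *Cish* had a log2 fold change of 0.16 (CI -0.21 to 0.54).

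*Socs1* (chr10:4957325-4958461, plus strand), which blocks JAK kinases downstream of interferon gamma and IL-2, differed most in *Grk2*-KO cells. Control libraries had normalized counts of 70.5, 65.4 and 69.8, and *Grk2*-KO libraries had 50.7, 57.0 and 50.9. All 3 KO libraries lay below all 3 controls, and the fold change was 0.773 (CI 0.614 to 0.975), or -0.37 ± 0.17 (SE, n = 3) on the log2 scale. It did not pass the threshold (limma, adjusted p = 0.405).

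In the parenchyma *Socs1* was 41.1, 44.2 and 41.3 in control and 55.6, 50.5 and 45.3 in the libraries labelled *Ets1*-KO. The groups did not overlap, but at 40 to 55 reads per library the log2 fold change of 0.25 ± 0.20 had an interval that included 0 (CI -0.15 to 0.65, adjusted p = 0.581 by limma). Among the spleen *Ets1* libraries *Socs1* was read 11 to 30 times per library and gave -0.20 (CI -0.88 to 0.47), with overlapping groups.

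*Socs3* (chr10:106975177-106976040, minus strand), the inhibitor of STAT3-activating receptors, was not detectable at this depth. Of 18 libraries, 16 had no read and 2 had 1 read, 1 of parenchyma control and 1 of the spleen libraries labelled *Ets1*-KO. A count of 0 allows up to 3 reads, or 1.33 to 3.34 RPM depending on the library (RPM is reads scaled to a common total of reads on genes), for counting error only. The row covered 864 bases, and reads from a 3′ end beyond the annotated one would not be counted in it.

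Over the 7 tested genes, 0 were called changed in the parenchyma, where limma called 366 of 7002 genes (5.23%), 0 in the spleen *Ets1* table, where it called 155 of 6979 (2.22%), and 0 in the *Grk2* table, where it called 109 of 6985 (1.56%). The number at an unadjusted p under 0.05 was 2 in the parenchyma (background 16.9%), 1 for *Ets1* in the spleen (14.1%) and 1 in the *Grk2* table (10.4%). On recovered reads edgeR also called 0 of 7 in each table, with 2, 0 and 1 at an unadjusted p under 0.05, and DESeq2 called 0 of 7 with none at that level. In the parenchyma and spleen *Ets1* tables DESeq2 put 369 of 7002 and 384 of 6979 genes at that level, and edgeR 1174 and 1003. For some of the 7 genes DESeq2 gave no adjusted p, among them *Jak3*, *Stat5a*, *Stat5b* and *Socs1* in the spleen *Ets1* table. These could not be called there. Groups that did not overlap occurred for 3 of 7 genes in the parenchyma, all higher in KO (7.87% of all tested genes), for 0 of 7 in the spleen *Ets1* table (16.9% in either direction) and for 1 of 7 in the *Grk2* table, lower in KO (4.62%). An exact two-sided permutation test of 3 against 3 libraries cannot fall below 0.1, the value that these 4 cases had. The median log2 fold change of the 7 genes was 0.17 in the parenchyma, with 6 of 7 positive, against -0.03 over all genes. It was -0.08 in the spleen *Ets1* table (3 of 7 positive) against 0.00 over all genes, and -0.05 in the *Grk2* table (2 of 7 positive) against 0.02.

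**Figure D2:**
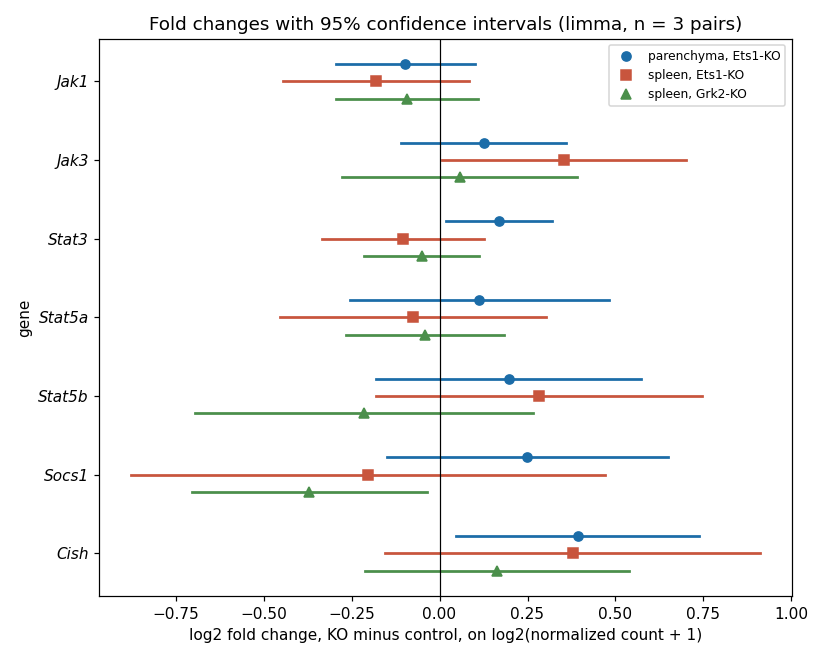
The horizontal axis is the log2 fold change of KO minus control on log2(normalized count + 1), points are limma estimates and lines their 95% confidence intervals, for 7 genes in 3 comparisons of 3 pairs each. Only 4 of the 21 intervals leave out 0, those of Stat3 and Cish in the parenchyma, Jak3 in spleen Ets1-KO and Socs1 in Grk2-KO, and none of them passed the adjusted threshold. Interval widths rest mainly on the spread shared by genes of similar level, and in the parenchyma on that alone, not on a gene's own pairs.

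The level of each gene in control cells was set side by side in RPM. The parenchyma and spleen tables are separate, so these levels were not tested, and the 2 groups of spleen controls show how far separate experiments in 1 tissue differed. Mitochondrial genes took 25.4% to 27.4% of the reads in parenchyma control, 17.3% to 18.6% in the spleen control of *Ets1* and 22.3% to 22.6% in the spleen control of *Grk2*, and the part of this in the levels was not tested. A gene was counted as apart where no library overlapped and the means differed at least 1.5-fold. *Stat3* was at 629 ± 21.1 RPM in parenchyma control (SD, n = 3), 316 ± 22.1 in the spleen control of *Ets1* and 311 ± 21.9 in the spleen control of *Grk2*. The parenchyma level was 1.99 and 2.02 times those of the spleen, and the spleen groups overlapped. *Jak3* was at 115 ± 18.0 in the parenchyma, 54.8 ± 11.2 and 46.6 ± 10.7 in the spleen groups, 2.09 and 2.46 times higher in the parenchyma. *Stat3* and *Jak3* were thus apart from both spleen groups, 2 of 7 genes, while 5.06% of 6207 genes were higher in the parenchyma in the same sense.

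*Jak1* was also above both spleen groups without overlap, at 209 ± 19.6 RPM against 161 ± 21.2 and 153 ± 15.3, but by less than 1.5-fold. *Stat5b* (35.9 ± 14.0, 27.1 ± 2.75 and 25.1 ± 6.40) and *Cish* (39.2 ± 3.85, 28.5 ± 10.9 and 35.2 ± 7.03) overlapped between all 3 control groups. *Socs1* and *Stat5a* stood apart between the spleen groups themselves, so that no order of tissues can be read for them. *Socs1* was at 14.9 ± 3.74 RPM in the spleen control of *Ets1*, 29.7 ± 0.629 in the parenchyma and 52.7 ± 2.32 in the spleen control of *Grk2*, a 3.55-fold difference within 1 tissue. *Stat5a* was at 38.0 ± 8.53 in the parenchyma, 54.5 ± 20.1 in the spleen control of *Ets1* and 114 ± 8.40 in the spleen control of *Grk2*, 2.10-fold between the spleen groups. Such differences were common, since 44% of 6207 genes stood apart between the 2 groups of spleen controls.

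**Figure D3:**
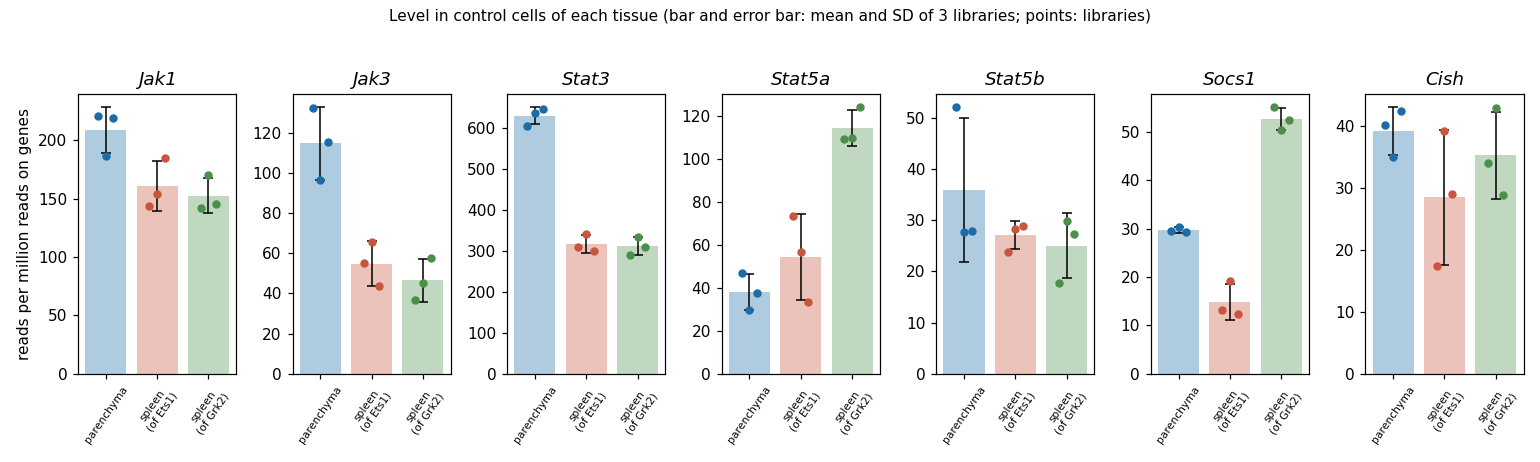
RPM (vertical axis, from 0) in the control cells of each tissue, with bars and error bars for the mean and SD of 3 libraries and points for libraries. Jak3 and Stat3 are highest in the parenchyma and alike in the 2 spleen groups, whereas Stat5a and Socs1 are highest in the spleen control of Grk2.

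Whether the difference between libraries labelled *Ets1*-KO and control differed between tissues was tested on the log2 ratios of the replicate pairs, 3 for the parenchyma and 3 for the spleen. None of the 7 genes passed the threshold (limma called 137 of 6520 genes, 2.1%), and 1 had an unadjusted p under 0.05 (background 13.8%). edgeR called 0 of 7 with 1 at that level, and DESeq2 called 0 of 7 with none. The 1 gene was *Stat3*, with pair ratios of 0.31, 0.13 and 0.07 in the parenchyma and -0.12, -0.10 and -0.09 in the spleen. All pairs of 1 tissue were positive and all of the other negative, as for 5.77% of genes, and the difference was 0.27 ± 0.13 on the log2 scale (SE; limma, adjusted p = 0.356). *Socs1* had the largest difference, 0.45 ± 0.36, with spleen pairs in both directions (adjusted p = 0.637). For *Cish* the difference was 0.01 ± 0.32, but its spleen pairs ran from -0.29 to 1.27. With 1 replicate left out the *Cish* difference ranged from -0.25 to 0.40.

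**Figure D4:**
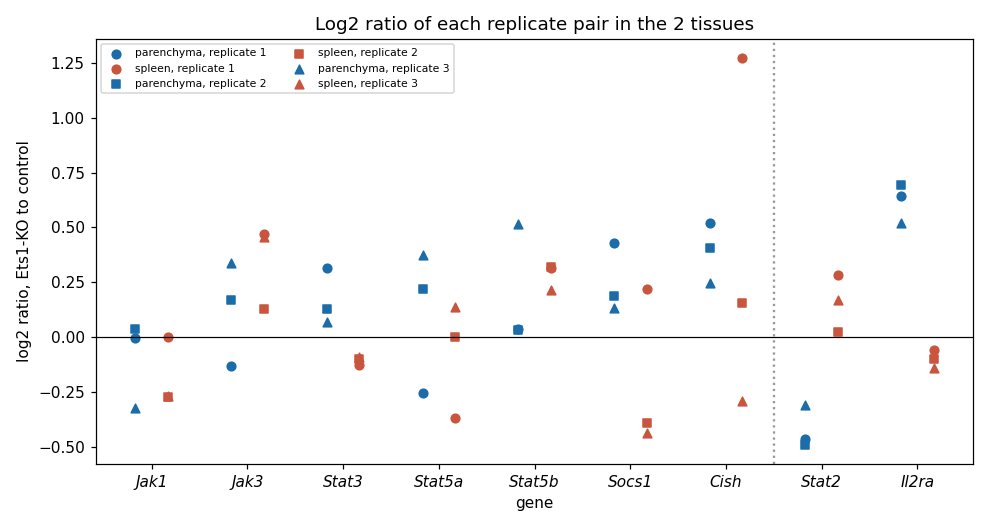
The log2 ratio of Ets1-KO to control (vertical axis) of each replicate pair in parenchyma (blue) and spleen (red), for the 7 tested genes and, right of the dotted line, Stat2 and Il2ra. Stat3, Stat2 and Il2ra have all parenchyma pairs on 1 side of 0 and all spleen pairs on the other, and Cish has spleen pairs from -0.29 to 1.27.

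Around these genes, lists of the rest of the pathway were examined in the same fits. Of 4 other JAK and STAT genes, 1 was lower in the parenchyma libraries labelled *Ets1*-KO, where 5.23% of all genes were called in either direction. *Stat2*, a factor of type I interferon signalling, went from 206, 172 and 239 to 150, 122 and 193, a log2 fold change of -0.42 ± 0.12 (limma, adjusted p = 0.0113). Every pair was lower, although the groups overlapped. None of the 4 was called in the spleen tables by limma (0 at an unadjusted p under 0.05 for *Ets1*-KO and 1 for *Grk2*-KO), edgeR (0 and 2) or DESeq2 (0 and 0). Over all genes limma called 2.22% for *Ets1*-KO and 1.56% for *Grk2*-KO there. DESeq2 put 384 of 6979 genes at an unadjusted p under 0.05 for *Ets1*-KO in the spleen.

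Of 20 receptor chains, 13 were tested in the parenchyma and 7 lay below the minimum level. *Il6r*, *Il6st*, *Il7r* and *Il23r* lay below it in all 3 tables, and *Il7r* had no read. Of the 13 tested in the parenchyma, 4 rose and none was called lower, where 5.23% of all genes were called in either direction. The list as a whole had a median log2 fold change of 0.06, with 8 values positive and 5 negative. *Ifnar1*, a chain of the type I interferon receptor, was lower in 3 of 3 pairs without overlap of the groups, but missed the threshold (log2 fold change -0.28 ± 0.11, limma, adjusted p = 0.109). *Il2ra*, the high-affinity chain of the IL-2 receptor, was 668, 638 and 667 in control and 1044, 1031 and 958 in libraries labelled *Ets1*-KO (log2 fold change 0.62 ± 0.08, limma, adjusted p = 1.89e-12). *Il2rb*, the signalling chain that IL-2 and IL-15 share, rose by 0.39 on the log2 scale (adjusted p = 3.58e-05), *Il21r* by 0.59 (adjusted p = 1.81e-05) and *Il4r* by 0.40 (adjusted p = 0.000398). In all 4 the groups did not overlap. For *Ets1* in the spleen, 1 of 12 chains was called (2.22% of all genes), *Il4r*, which went from 110, 133 and 132 to 244, 238 and 200 (log2 fold change 0.86 ± 0.14, limma, adjusted p = 0.00188). In *Grk2*-KO cells 1 of 14 was called (1.56% of all genes), *Il2ra*, which was lower (214, 314 and 267 in control and 152, 220 and 225 in KO, log2 fold change -0.42 ± 0.10, limma, adjusted p = 0.00512), with overlapping groups. For the difference between tissues in the *Ets1* effect, 1 of 12 chains was called (2.1% of all genes), *Il2ra* (0.72 ± 0.14, limma, adjusted p = 0.00347). At an unadjusted p under 0.05 there were 5 of 12 (background 13.8%). edgeR called 2 of 12 and DESeq2 1.

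Few ligands were expressed at a level that could be tested, 3, 1 and 2 of 20 in the 3 tables. *Il22*, a STAT3-activating cytokine made by T cells, rose in the parenchyma from 85.0, 79.9 and 54.1 to 161, 120 and 107 (log2 fold change 0.82 ± 0.15, limma, adjusted p = 3.75e-06). The list named other inhibitors held SOCS, PIAS and phosphatase genes, and also *Sh2b3*, *Stam* and *Stam2*. Of its tested genes, 0 of 13, 0 of 11 and 0 of 14 were called by limma (5.23%, 2.22% and 1.56% of all genes), with 0, 1 and 1 at an unadjusted p under 0.05. The same counts came from edgeR, and DESeq2 called 0 in each table with none at that level. Over all genes DESeq2 put 369 of 7002 in the parenchyma and 384 of 6979 in the spleen *Ets1* table at that level.

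Among genes known as targets of cytokine and STAT signals, 3 of 14 rose in the parenchyma and none was called lower (background 5.23% in either direction). At an unadjusted p under 0.05 limma had 9 of 14 (background 16.9%). edgeR called 4 of 14, with 8 at that level (354 and 1174 of all 7002 genes). DESeq2 called 0 of 14, with 4 at that level (82 and 369 of all 7002 genes). In all, 10 values were positive and 4 negative. Of the negative ones, *Irf1* (log2 fold change -0.23, limma, adjusted p = 0.152) and *Irf8* (-0.56, adjusted p = 0.293) were lower in 3 of 3 pairs and *Pim2* (-0.69, adjusted p = 0.2) in 2 of 3. Those that rose were *Ccnd2*, a cyclin of the G1 phase (log2 fold change 0.66, limma, adjusted p = 0.000185), *Batf*, an AP-1 factor of helper subsets (0.46, adjusted p = 0.00269), and *Tbx21*, which encodes T-BET (0.35, adjusted p = 0.00169). In the spleen libraries labelled *Ets1*-KO 2 of 13 were called, both higher (2.22% of all genes in either direction), *Junb* (0.61, limma, adjusted p = 0.0172) and *Maf* (0.57, adjusted p = 0.0422). In *Grk2*-KO cells 1 of 13 rose (1.56% of all genes were called in either direction), the cyclin gene *Ccnd3* (0.38, limma, adjusted p = 0.00172). The median log2 fold change of the list was 0.18 in the parenchyma, 0.33 for *Ets1* in the spleen and -0.08 in *Grk2*-KO cells.

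In limma none of these calls in the pathway lists passed when the spread was not estimated as a function of level, while edgeR made each of them. The calls of *Stat2*, *Il21r*, *Ccnd2*, *Batf*, *Tbx21*, *Maf*, *Ccnd3* and *Il2ra* in *Grk2*-KO cells were lost with DESeq2, with adjusted p between 0.0589 and 0.68, and the others passed there. Leaving out a replicate pair ended calls as well. Without replicate 1 *Stat2* (adjusted p = 0.114) and *Il21r* (0.0525) were lost in the parenchyma, and *Il4r* (0.391), *Junb* (0.459) and *Maf* (0.588) in the spleen. Without replicate 2 *Stat2* (0.181), *Ccnd2* (0.0911), *Batf* (0.378) and *Tbx21* (0.107) were lost in the parenchyma, and without replicate 3 *Junb* (0.0768) and *Maf* (0.153) in the spleen. *Il2ra* and *Ccnd3* in *Grk2*-KO cells were lost without replicate 1 (0.17 and 0.379) or 2 (0.484 and 0.228). The tissue difference of *Il2ra* was lost without replicate 1 (0.0936).

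**Figure D5:**
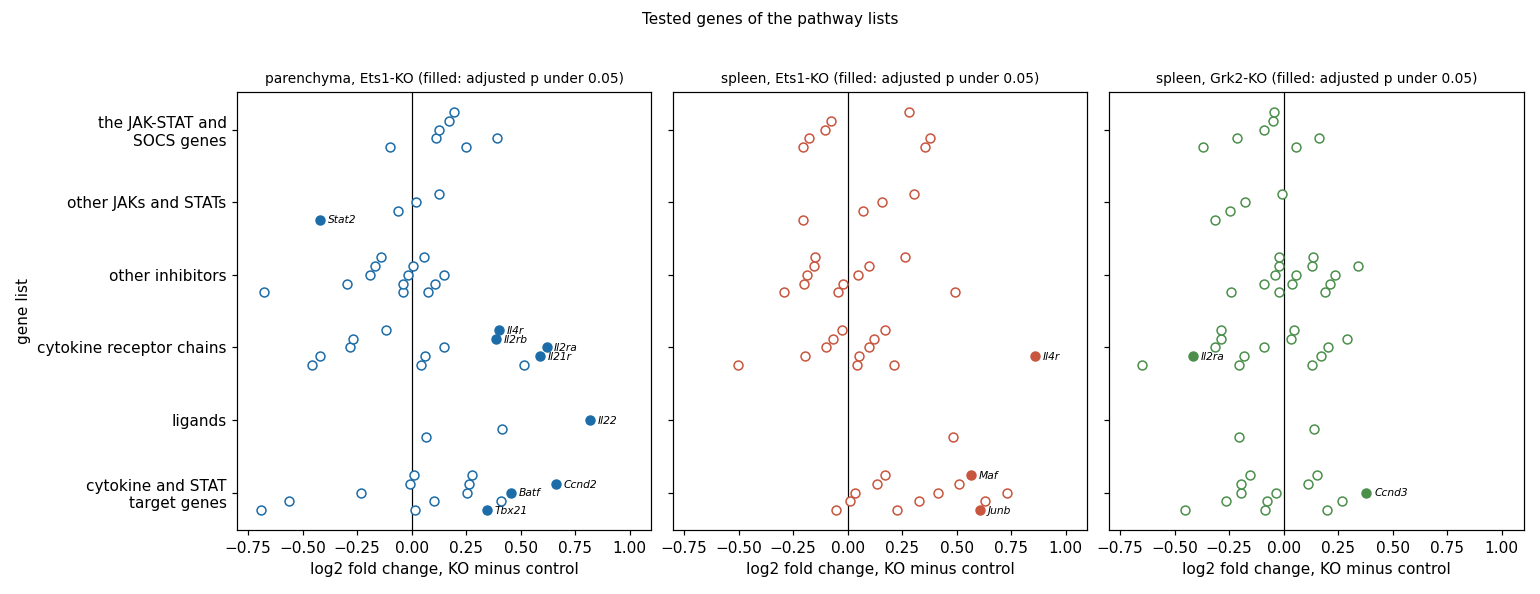
The horizontal axis is the log2 fold change of KO minus control, each point is a tested gene of the list named at the left, and filled points passed an adjusted p under 0.05. All 7 tested JAK-STAT and SOCS genes in the top line are open in all 3 panels, while Stat2 lies left of 0 and 4 receptor chains right of 0 as filled points in the parenchyma.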

How the data were processed

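Libraries of rat T-MBP cells (18, in 6 groups of 3, grouped by the sample labels) were analysed. Each deposited signal value is a gene's read count over the library's size factor. According to the study's methods and processing notes, reads were aligned to Rnor_6.0 with STAR 2.7.2b, counted with HTSeq 1.0.0 and scaled with DESeq2 2.11.40.7 (poscounts). Strand setting and treatment of reads with several matches were not given in the sources used here. All positive values were multiples of 1 step per library (tolerance 0.01, 100% whole), from which reads were recovered. The authors' fold changes and p-values, and 8 human columns, were not used.

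Genes that averaged 10 or more normalized counts over a table were tested two-sided with limma 3.58.1 (eBayes with a trend) on log2(normalized count + 1) within each table, with replicate number as a block, in R 4.3.3. Tests were run on simulated counts with known changes and no replicate effect, which cannot check the block or the shared spread in these data. Alternatives used edgeR 4.0.16, DESeq2 1.42.0, other scalings, filters and pseudocounts, and leaving out each replicate. The 9 genes are named always, and genes of the pathway lists where they passed the threshold, and 1 gene of those lists is not reported here. Genes and lists were chosen with earlier results of these data known. The study calls its replicates biological and describes the parenchyma KO and control cells as taken from co-transferred animals. The labels, however, do not tie libraries to animals. Intervals and floors cover counting error only where they come from reads.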

Additional observations from a re-analysis of the deposited data

Results flagged for a closer look

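3 genes were marked because the difference of libraries labelled *Ets1*-KO from control was not alike in the parenchyma and the spleen. For *Stat3* every parenchyma pair was positive and every spleen pair negative, with a difference of 0.27 on the log2 scale that missed the threshold (limma, adjusted p = 0.356). *Stat2*, which is in the list of other JAK and STAT genes, showed the opposite pattern in every pair, with a difference of -0.58 (adjusted p = 0.067). The difference passed the test for *Il2ra* (0.72, adjusted p = 0.00347). *Irf8* was not called in a KO comparison and so was not screened. It also had every parenchyma pair negative and every spleen pair positive, with a difference of -1.07 ± 0.42 (SE; limma, adjusted p = 0.207). Of 6520 genes, 5.77% had all pairs on opposite sides in the 2 tissues, and 2.1% passed the test. No group had enough libraries for a check of single outlying samples.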

How the results depend on the processing

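No alternative brought any of the 7 tested genes past the threshold, in 411 refits of single genes. Some of these refits could not pass, because DESeq2 gave no adjusted p, as for *Jak3*, *Stat5a*, *Stat5b* and *Socs1* in the spleen *Ets1* table. The number of all genes called was less stable. In the parenchyma (366) it was 200 without the replicate block, 212 with no filter on low counts, 3 without a trend and 82 with DESeq2, and 163 to 277 when 1 replicate was left out. In the spleen *Ets1* table (155) it was 71 without the block, 242 with no filter, 0 without a trend (785 at an unadjusted p under 0.05), 238 with edgeR and 58 with DESeq2, and 3 (without replicate 1) to 232 when 1 replicate was left out. In the *Grk2* table (109) it was 19 without the block, 60 at a minimum of 50, 0 without a trend (571 at an unadjusted p under 0.05) and 12 with DESeq2, and 6 (without replicate 2) to 50 when 1 replicate was left out. For the difference between tissues (137) it was 47 without the block, 2 without a trend and 68 with DESeq2, and 28 to 112 when 1 replicate was left out. The block was kept because the methods state a correction per animal when applicable and the study describes co-transfer for the parenchyma cells. Libraries of the same number deviated together only weakly (correlations of -0.003 to 0.175 within tables). That a replicate number stands for the same animal is thus not established by the data or the labels. Without the block the calls of *Stat2* (limma, adjusted p = 0.116), *Junb* (0.0719), *Maf* (0.0962), *Il2ra* in *Grk2*-KO cells (0.327) and *Ccnd3* (0.142) were lost.

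Of the 411 refits, 14 turned the direction of a value that was not called, all but 1 of them with a replicate left out. With 1 replicate left out the log2 fold change in the parenchyma ranged from -0.16 to 0.017 for *Jak1* and from -0.018 to 0.30 for *Stat5a*, and in the spleen *Ets1* table from -0.18 to 0.069 for *Stat5a* and from -0.068 to 0.71 for *Cish*. In *Grk2*-KO cells it ranged from -0.043 to 0.18 for *Jak3*, -0.10 to 0.036 for *Stat3*, -0.10 to 0.045 for *Stat5a* and -0.49 to 0.049 for *Stat5b*. The difference between tissues ranged from -0.032 to 0.15 for *Jak1*, -0.28 to 0.012 for *Stat5b* and -0.25 to 0.40 for *Cish*, which was also -0.037 with DESeq2. The cause was not tested. The share of higher genes among those called in the parenchyma was 43.4% as scaled by the authors and 53.6% with TMM, for *Ets1* in the spleen 45.8% and 58.3%, and for *Grk2* 59.6%, against 45.3% with quantile normalization, while the median over all genes stayed within 0.03 of 0 on the log2 scale.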
